A study of Homo sapiens with 3 samples.

Results

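Among cells of human embryonic stem cell colonies treated with CHIR99021 and Activin A, 1059 of 6876 kept cells (15.4%, 14.6 to 16.3) held SOX2 transcripts together with no or few transcripts of the first mesoderm and endoderm genes. A cell was a member if it had at least 2 UMIs (unique molecular identifiers, counted transcripts) of SOX2, 0 of TBXT, 0 of FOXA2, at most 1 of EOMES and fewer than 10 of LEFTY1 and LEFTY2 together. Cells with fewer than 2000 genes or more than 15% of UMIs from mitochondrially encoded genes had been left out. The members were set against the other 5817 kept cells of the same library. They were also set against the cells that met the same rule in libraries of colonies treated otherwise, 704 of 7084 (9.94%, 9.25 to 10.7) under CHIR99021 alone and 324 of 9401 (3.45%, 3.09 to 3.84) under BMP4.

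All 3 libraries came from HES3 MIXL1:GFP cells, a human embryonic stem cell line in long use that carries a green fluorescent protein reporter at MIXL1, seeded on micropatterns with 10 µM of the kinase inhibitor Y-27632. Colonies grew for 24 h and were then treated for 48 h. The CHIR+Activin library received 3 µM of CHIR99021, a GSK3 inhibitor that activates WNT signalling, with Activin A at 100 ng/mL, which acts on the NODAL receptors. The CHIR library received 6 µM of CHIR99021 and the BMP4 library BMP4 itself, a secreted signal of the BMP family, at 50 ng/mL. Each library pooled about 10 micropatterns of this line and was the only one of its treatment, so treatment and library cannot be told apart and no difference was tested. The sources used here do not say whether these micropatterns came from separate cultures.

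The epiblast is the pluripotent layer from which all tissues of the embryo arise. SOX2 encodes a transcription factor that works with OCT4 (POU5F1) and NANOG to hold epiblast and embryonic stem cells in the pluripotent state, and it is later kept in the neural lineage. WNT and NODAL signals move epiblast cells into the primitive streak, where TBXT, EOMES and MIXL1 come on, and part of the streak goes on to FOXA2- and SOX17-positive endoderm. LEFTY1 and LEFTY2 are secreted NODAL inhibitors that NODAL itself turns on.

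The CHIR+Activin library held 130592423 UMIs in its kept cells, the CHIR library 185215378 and the BMP4 library 137174566, with medians of 17202, 22919.5 and 12623 UMIs per cell. The members held 18959645 UMIs in sum, so that 3 counts, the limit that a count of 0 allows, stood at 0.158 CPM, where CPM are a gene's summed UMIs per 1000000 UMIs of the group. Depth was close in members and other cells, with medians of 16684 and 17300 UMIs, 5271 and 5323 genes, and 4.41% and 4.73% of mitochondrial UMIs. The CHIR+Activin library shared 12 cell barcodes with each of the other libraries. The automatic doublet threshold marked 0 cells in any library and so did not work. Of members, 28 (2.64%) were among the 6% of cells with the highest doublet scores, against 385 of the other cells (6.62%). All intervals are 95% intervals for counting error only.

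SOX2 chose the cells, and MIXL1 was the best known streak gene that the rule did not read, so the 250 bases before the start of each are shown from RefSeq (GRCh38.p14), 5′ to 3′ on the plus strand, SOX2 from chr3:181711675-181711924 and MIXL1 from chr1:226223414-226223663. Capitals mark ACAAAG, a sequence bound by proteins of the SOX and TCF families.
SOX2: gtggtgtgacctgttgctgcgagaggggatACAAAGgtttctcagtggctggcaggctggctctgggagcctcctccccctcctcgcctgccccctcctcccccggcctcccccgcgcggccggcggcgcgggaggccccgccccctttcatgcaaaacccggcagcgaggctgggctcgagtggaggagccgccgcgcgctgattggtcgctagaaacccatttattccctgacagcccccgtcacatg
MIXL1: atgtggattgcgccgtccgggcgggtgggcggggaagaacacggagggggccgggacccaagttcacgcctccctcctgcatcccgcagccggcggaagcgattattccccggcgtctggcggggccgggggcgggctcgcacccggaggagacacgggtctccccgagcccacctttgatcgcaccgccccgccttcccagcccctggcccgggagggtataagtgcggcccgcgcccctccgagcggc
The motifs searched, on both strands, were ACAAAG, the CATTGTT form of a SOX site and the octamer ATGCAAAT bound by OCT4. Of 35116 such windows over all genes, 13.7% held ACAAAG, 2.87% held CATTGTT and 1.63% held ATGCAAAT. Of the 12 genes with the largest ratio in members named below, 6 had windows, and 2 of these 16 windows held ACAAAG while 0 held either of the other motifs. Of the 12 genes with the smallest ratio, 7 had windows, and 1 of 8 windows held ACAAAG while 0 held the others. A match describes these letters only, and a window without one may hold other forms of such sites, which were not searched.

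The members carried the pluripotency genes of epiblast at levels somewhat above the other cells. USP44, a deubiquitinase of pluripotent cells, stood at 147 CPM in members (141 to 152) and 90.2 CPM in the other cells (88.4 to 92.0), a log2 ratio of 0.70. SFRP2, a secreted WNT modulator, stood at 265 CPM in members and 198 CPM in the other cells (log2 0.42), and DNMT3B, a de novo DNA methyltransferase, at 650 CPM and 525 CPM (log2 0.31). POU5F1 was nearly level, with 1141 CPM in members and 1058 CPM in the other cells (log2 0.11), as was NANOG with 73.7 CPM and 65.7 CPM (log2 0.17). All 10 markers set for epiblast-like cells were detected in members, summing to 3723 CPM over the 9 that the rule did not read, against 3026 CPM in the other cells. The label epiblast-like rests on these markers, none of which was confined to the members, and SOX2 among them was required by the rule. TDGF1 alone of the 9 lay slightly lower, with 216 CPM in members and 221 CPM in the other cells. In cells with 0 or 1 SOX2 UMIs that met the rest of the rule, SFRP2 stood at 263 CPM and POU5F1 at 1142 CPM. The same markers were also present in the other cells, 99.9% of which had POU5F1 at a common depth of 10000 UMIs.

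Over the wider list of pluripotency genes, 25 were measured and not read by the rule, where measured means at least 10 CPM in either group. None of the 25 reached 2-fold in either direction, 19 lay above an equal level and 6 below, and their median log2 ratio was 0.31, beside a median of 0.00 over all 9837 measured genes. The highest ratios were those of PODXL, a sialomucin of the pluripotent cell surface, with 119 CPM in members and 61.3 CPM in the other cells (log2 0.96), and of PRDM14, a transcription factor of pluripotent and germ cells, with 14.7 and 7.80 CPM (log2 0.91). TERF1, a telomere-binding protein, had 685 CPM in members and 453 CPM in the other cells (log2 0.60). The lowest ratio was that of ZIC2, a zinc finger factor of epiblast and neural plate, with 63.8 CPM in members and 105 CPM in the other cells (log2 -0.72).

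The summed markers of each other lineage lay lower in the members than in the other cells. The sum of the endoderm markers outside the rule was 20.8 CPM in members and 295 CPM in the other cells, that of the streak markers 241 and 595 CPM, and that of the nascent mesoderm markers 7.81 and 21.2 CPM. The 5 neural ectoderm markers summed to 14.9 CPM in members and 25.4 CPM in the other cells, with PAX6 and SOX1 at 0 UMIs in members. OTX2, a homeobox factor also expressed in epiblast and endoderm, made up most of that sum in the other cells, with 6.75 CPM in members and 19.96 CPM in the other cells. HESX1 lay the other way with 8.07 CPM in members and 5.24 CPM in the other cells, as did SOX3 with 2.53 and 0.976 CPM and LMO3 with 7.44 and 4.70 CPM, both from the longer neural list. HESX1, SOX3 and LMO3 were under 10 CPM in both groups and so do not count as measured. Of the 15 genes of that list 3 were measured, with 0 at least 2-fold higher and 1, OTX2, at least 2-fold lower. Their median log2 ratio was -0.30, with 2 below an equal level and 1 above. Markers of amnion summed to 2.80 CPM in members and 3.29 CPM in the other cells, those of germ cells to 30.4 and 37.9 CPM, and those of caudal epiblast to 33.9 and 40.0 CPM. Not every marker followed its sum. The germ cell marker TFAP2C, at 13.8 CPM in members, lay higher in them (log2 0.55). The caudal marker NKX1-2, at 30.7 CPM in members, made up most of its sum and was nearly level (log2 0.04). Of the 5 amnion markers, 4 were under 1 CPM in members. MSGN1 was at 0 in the members too.

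Of all 9837 genes measured, 38 (0.386%) were at least 2-fold higher in members and 125 (1.27%) at least 2-fold lower. The rule itself read SOX2 on the higher side and TBXT, FOXA2, EOMES and LEFTY2 on the lower side, which leaves 37 and 121 genes. Because the cells were chosen from these counts, the numbers describe the members and support nothing. When the rule was instead applied to cells drawn down to 10000 UMIs each, 14 genes were at least 2-fold higher and 81 at least 2-fold lower. These counts include the genes of the rule and so stand beside 38 and 125.

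The 12 leading genes on the higher side, those of at least 50 CPM with the largest ratios, began with a pair of noncoding RNAs and a splicing factor. JAKMIP2-AS1, an antisense RNA, stood at 61.9 CPM in members (58.4 to 65.6) and 19.5 CPM in the other cells (18.7 to 20.3), a log2 ratio of 1.67 (1.57 to 1.77). RMST, a long noncoding RNA known to bind SOX2 in neural cells, stood at 165 CPM in members (160 to 171) and 64.0 CPM in the other cells (62.6 to 65.5), a log2 ratio of 1.37 (1.31 to 1.43). RBFOX1, a splicing factor of neurons, stood at 56.0 CPM in members and 24.7 CPM in the other cells (log2 1.18). The sources used here do not say whether the authors' counting used strand, so reads of JAKMIP2-AS1 and of its partner gene may not be separate.

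PODXL, described above among the pluripotency genes, ranked 10 among the 12. The other leading genes with a symbol were the transmembrane gene TMEM132B at 99.1 CPM in members and 48.0 CPM in the other cells, the glycosyltransferase gene MGAT4C at 95.0 and 47.3 CPM, the integrin ligand EDIL3 at 97.9 and 50.5 CPM and the zinc finger gene ZNF483 at 69.7 and 37.6 CPM. LINC00698, a noncoding RNA, stood at 97.5 CPM in members and 48.1 CPM in the other cells. The 3 leading genes known only by an identifier were ENSG00000289533 with 281 CPM in members and 130 CPM in the other cells, ENSG00000234261 with 77.5 and 35.5 CPM and ENSG00000284294 with 72.1 and 33.1 CPM. Below the 50 CPM set for leading genes, GRIK2, a kainate glutamate receptor subunit, had 31.8 CPM in members and 11.7 CPM in the other cells (log2 1.45). POU3F1, a POU factor of epiblast and neural progenitors, had 11.1 CPM in members and 4.71 CPM in the other cells (log2 1.23). GRIK2 and POU3F1 were picked out after their values were seen.

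**Figure D1:**
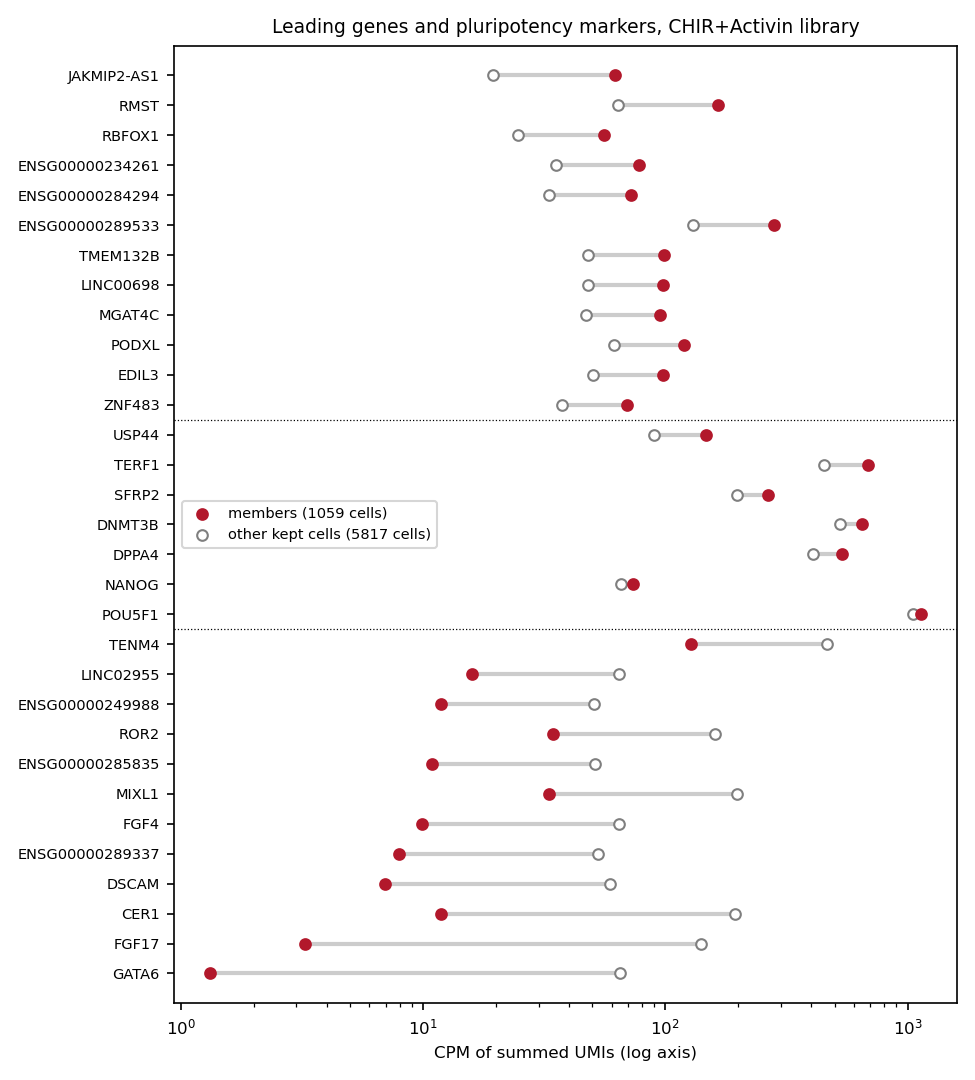
CPM on a log axis of summed UMIs in members (filled) and in the other kept cells (open) of the CHIR+Activin library, for the 12 leading genes on the higher side at the top, 7 pluripotency markers in the middle and the 12 leading genes on the lower side at the bottom. The gaps on the lower side are wider, up to GATA6 at 1.32 CPM in members and 65.1 CPM in the other cells, while POU5F1 at 1141 and 1058 CPM nearly coincides.

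The 12 leading genes on the lower side included markers of the primitive streak and of endoderm. MIXL1, a homeobox factor of the streak and the locus of the line's reporter, stood at 33.2 CPM in members (30.6 to 35.9) and 198 CPM in the other cells (195 to 200), a log2 ratio of -2.57 (-2.69 to -2.46). FGF4 and FGF17, both secreted fibroblast growth factors, stood at 9.92 and 3.27 CPM in members and at 64.2 and 141 CPM in the other cells, with log2 ratios of -2.70 and -5.43. CER1, which encodes a secreted antagonist of NODAL and BMP, stood at 11.9 CPM in members and 194 CPM in the other cells (log2 -4.03). GATA6, a transcription factor of endoderm and mesoderm, stood at 1.32 CPM in members, which is 25 UMIs in all, and at 65.1 CPM in the other cells (log2 -5.62).

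Of 9 measured genes of the primitive streak list outside the rule, 6 were at least 2-fold lower in members and all 9 lay below an equal level, with a median log2 ratio of -2.57. The homeobox factor LHX1 had 12 UMIs in members, 0.633 CPM, against 35.2 CPM in the other cells, and GSC, a homeobox factor of the organizer, had 1.32 CPM against 23.2 CPM. WNT3, the WNT ligand of the streak, was closer with 32.1 CPM in members and 70.1 CPM in the other cells (log2 -1.12). NODAL at 122 CPM in members and 188 CPM in the other cells (log2 -0.62), FGF8 at 43.2 and 74.9 CPM (log2 -0.79) and the WNT target SP5 at 78.7 and 134 CPM (log2 -0.77) were the 3 that missed 2-fold.

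Of 6 measured genes of the definitive endoderm list, 4 were at least 2-fold lower, with a median log2 ratio of -3.14. SOX17, the defining factor of endoderm, had 3 UMIs in all members, 0.158 CPM, against 10.0 CPM in the other cells, a log2 ratio of -5.99 (-8.27 to -4.43). GATA4, another endoderm factor, had 3.74 CPM in members and 17.7 CPM in the other cells (log2 -2.24). The rule kept FOXA2 itself at 0 in members.

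Adhesion and receptor genes were found on both sides. ROR2, a receptor for WNT5A, stood at 34.5 CPM in members and 160 CPM in the other cells (log2 -2.21), and TENM4, a teneurin adhesion protein, at 128 and 464 CPM (log2 -1.86). CDH2, N-cadherin, stood at 63.1 CPM in members (59.6 to 66.8) and 197 CPM in the other cells (194 to 200), a log2 ratio of -1.64, and was the 1 gene of 7 measured in the list of cadherins and epithelial-mesenchymal genes that reached 2-fold. Of 11 measured tight junction genes, CLDN3, a claudin, reached 2-fold with 13.6 CPM in members and 6.00 CPM in the other cells (log2 1.18), and 10 of the 11 lay above an equal level. The median log2 ratio of the 11 was 0.14, beside 0.00 over all measured genes. DSCAM, a homophilic adhesion protein of neurons, also stood among the lowest with 6.96 CPM in members and 58.9 CPM in the other cells (log2 -3.08). The remaining leading genes on the lower side were LINC02955, with 15.9 CPM in members and 64.4 CPM in the other cells, and ENSG00000289337, ENSG00000285835 and ENSG00000249988, which have an identifier alone and lay between 7.96 and 11.9 CPM in members and between 50.8 and 52.6 CPM in the other cells.

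The signalling lists differed in how many of their genes were lower in members. Over all 9837 measured genes, 1.27% were at least 2-fold lower and 0.386% at least 2-fold higher. LHX1, GSC and MIXL1 stand in both the streak list and the NODAL feedback list. Of 9 measured genes of NODAL feedback outside the rule, 5 were at least 2-fold lower, CER1, GSC, LHX1 and MIXL1 among them. Of 10 measured NODAL ligands, receptors and SMAD genes, 0 reached 2-fold (median log2 -0.20). Of 10 measured WNT feedback genes, 3 were at least 2-fold lower, and these were the WNT inhibitor DKK1 with 0.527 CPM in members and 36.6 CPM in the other cells, APCDD1 with 3.16 and 10.8 CPM, and NKD1 with 10.1 and 20.5 CPM. AXIN2, a direct target of beta-catenin, was closer with 27.6 CPM in members and 31.3 CPM in the other cells (log2 -0.18). Over the WNT feedback list the median log2 ratio was -0.10. Of 11 measured genes of FGF and ERK feedback, 0 reached 2-fold and 8 lay above an equal level (median log2 0.14).

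Of 9 measured FGF ligands and receptors, FGF4 and FGF17 were the 2 that reached 2-fold, and the receptor FGFR2 lay the other way with 51.5 CPM in members and 32.1 CPM in the other cells (log2 0.68). BMP ligands and targets gave 0 of 7 past 2-fold (median log2 0.09), with ID1, a BMP target, at 206 CPM in members and 194 CPM in the other cells. CYP26A1, which breaks down retinoic acid, was the 1 of 4 measured retinoid genes at least 2-fold lower, with 4.48 CPM in members and 38.8 CPM in the other cells. HES1, a NOTCH target, was the 1 of 7 measured NOTCH genes, with 14.0 CPM in members and 32.9 CPM in the other cells. Of 12 measured axon guidance genes, 4 were at least 2-fold lower and 0 higher, beside 1.27% and 0.386% over all 9837 measured genes. Among the 4 was the semaphorin receptor PLXNA2, at 2.16 CPM in members and 32.5 CPM in the other cells.

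Per cell, the same genes were met in different shares of cells. At a common depth of 10000 UMIs, 1012 members and 5531 other cells remained, and RMST was seen in 70.8% of members (67.8 to 73.5) and 33.6% of the other cells (32.4 to 34.9). The 108 cells of the library with at least 2 SOX17 UMIs, which are part of the other cells and whose median depth was 18208.5 UMIs, gave 5.66% (2.11 to 11.9). Whether these SOX17 cells lack RMST was not tested, so their share is not a measured background. Without thinning, 19.4% of them held SOX2 UMIs. Without thinning these shares of RMST were 80.2%, 46.4% and 15.7%. JAKMIP2-AS1 was seen in 38.1% of members, 13.3% of the other cells and 2.83% of SOX17 cells after thinning. USP44 was seen in 74.1% of members, 54.5% of the other cells and 17.9% of SOX17 cells.

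MIXL1 was seen in 23.2% of members (20.7 to 25.9) and 63.5% of the other cells (62.2 to 64.8) at the common depth, and in 32.1% and 72.6% without thinning. CER1 was seen in 10.2% of members and 42.0% of the other cells, FGF17 in 2.47% and 28.8%, and GATA6 in 1.28% and 20.3%. The SOX17 cells were at 93.4% for MIXL1, 100% for CER1 and FGF17 and 99.1% for GATA6. The part of RNA free in the droplets in the low shares of the members was not tested.

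The cells that failed a single clause of the rule showed how near the members lay to their neighbours. The 1073 cells with 0 or 1 SOX2 UMIs that met every other clause differed from members at 2-fold or more in 1 gene on the higher side (0.0102%) and 3 on the lower side (0.0307%) of 9759 measured genes outside the rule. These 3 were FGF17, CER1 and ENSG00000289337. CER1 stood at 11.9 CPM in members and 29.5 CPM in these cells, MIXL1 at 33.2 and 59.2 CPM, and RMST at 165 and 119 CPM. The median depth was 16684 UMIs in members and 13825 UMIs in these cells, so the SOX2 clause also sorted cells by depth.

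The 279 cells that failed only by TBXT differed from members in 3 genes higher (0.0306%) and 9 lower in members (0.0919%), among the lower ones MIXL1 with 33.2 CPM in members and 73.9 CPM in these cells and FGF4 with 9.92 and 24.3 CPM. The 181 cells that failed only by FOXA2 differed in 3 higher (0.0304%) and 4 lower genes (0.0405%), and GATA6 stood at 1.32 CPM in members and 2.71 CPM in them. The 166 cells with 10 or more LEFTY UMIs differed in 16 higher (0.163%) and 14 lower genes (0.143%), and NODAL stood at 122 CPM in members and 195 CPM in them. The 127 cells with at least 2 EOMES UMIs stood farther off, with 61 genes higher (0.616%) and 55 lower in members (0.555%), and RMST at 165 CPM in members and 77.4 CPM in these cells. The 3991 cells that failed 2 or more clauses differed in 89 higher (0.901%) and 168 lower genes (1.70%), and the 108 SOX17 cells in 775 (7.52%) and 653 (6.34%).

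**Figure D2:**
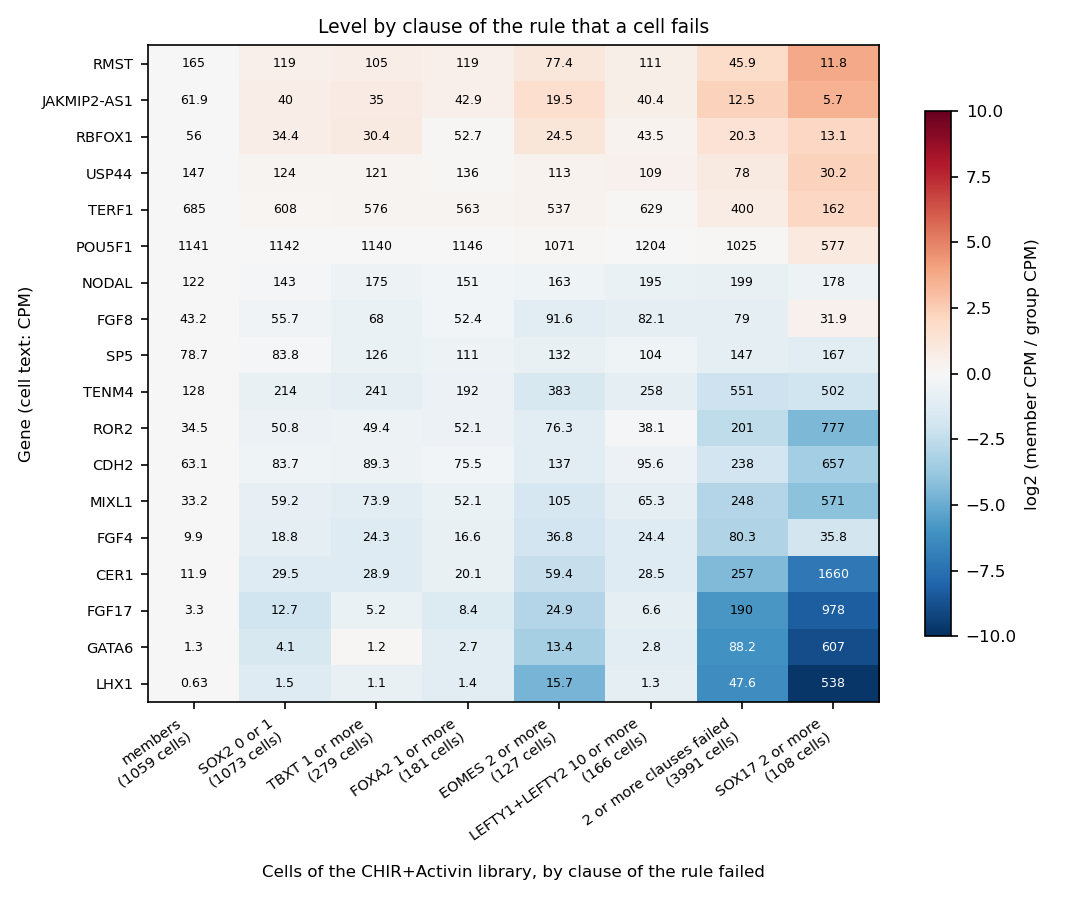
CPM of 18 genes (numbers in the cells) in members and in groups of CHIR+Activin cells that fail 1 clause, that fail 2 or more clauses or that hold at least 2 SOX17 UMIs; colour is the log2 ratio of the members over each group, red where members are higher and blue where they are lower. RMST goes 165, 119 and 11.8 CPM in members, in cells with SOX2 at 0 or 1 and in SOX17 cells, and MIXL1 goes 33.2, 59.2 and 571 CPM.

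Within the cells that met every clause except the one on SOX2, the levels of RMST and MIXL1 on either side of the threshold were close, while those of CER1 were farther apart. Just outside it, the 522 cells with 1 SOX2 UMI had RMST at 124 CPM and MIXL1 at 49.0 CPM, and just inside it the 421 members with 2 SOX2 UMIs had 136 and 44.1 CPM. From 0 to 6 or more SOX2 UMIs, MIXL1 was 70.4, 49.0, 44.1, 33.9, 25.7 and 19.5 CPM, and JAKMIP2-AS1 was 33.7, 45.9, 49.3, 59.6, 57.9 and 99.2 CPM. CER1 was 38.6, 21.2, 11.4, 14.8, 8.49 and 13.5 CPM over the same classes, and FGF17 was 20.1, 5.94, 3.90, 1.29, 4.79 and 2.64 CPM. GATA6 was at 7.01 CPM in cells with 0 SOX2 UMIs and between 0.659 and 1.52 CPM in the other classes. SFRP2 showed no order, with 242, 283, 266, 256, 288 and 238 CPM. POU5F1 lay between 1111 and 1165 CPM in all 6 classes. The 126 members with 6 or more SOX2 UMIs had a median of 22838 UMIs per cell, against 15079 for those with 2, and the part of depth in these series was not tested.

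**Figure D3:**
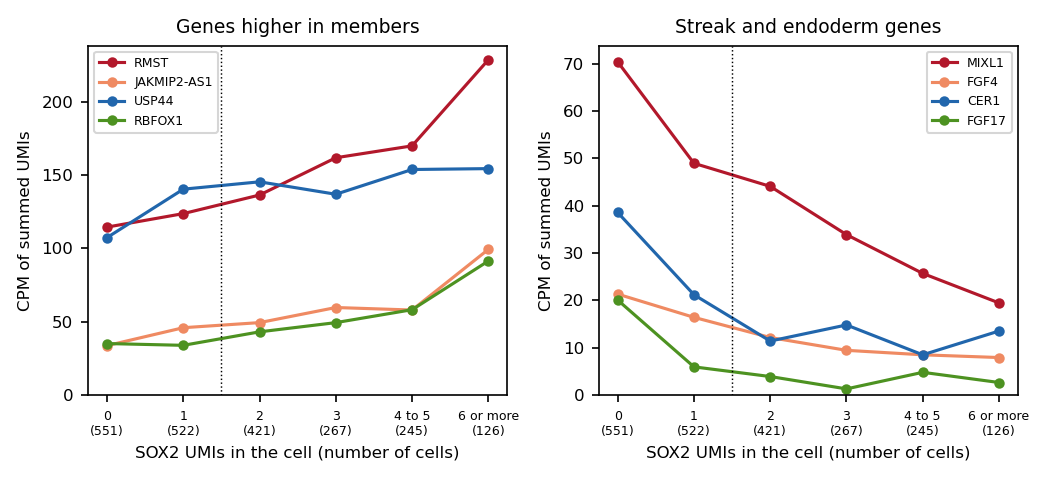
CPM of summed UMIs against the SOX2 UMI count of a cell, in CHIR+Activin cells that meet every clause except that on SOX2; the dotted line marks the threshold of 2 UMIs and numbers in brackets are cells. MIXL1 goes down from 70.4 CPM at 0 SOX2 UMIs to 19.5 CPM at 6 or more, and RMST goes up from 114 to 228 CPM. The median depth of a cell goes up from 13374 to 22838 UMIs over the same classes.

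The clauses on EOMES and LEFTY also cut through ranges. The 873 members with 0 EOMES UMIs had MIXL1 at 24.5 CPM, the 186 members with 1 had 72.8 CPM, the 67 cells with 2, just outside, had 69.1 CPM and the 60 cells with 3 or more had 143 CPM. LHX1 stood at 0.579 and 0.880 CPM in the members with 0 and 1 EOMES UMIs and at 0.751 and 31.3 CPM in the cells with 2 and with 3 or more. Along the sum of LEFTY1 and LEFTY2 UMIs, in classes of 0, 1 to 4, 5 to 9 (members) and then 10 to 14 and 15 or more (outside), NODAL was 86.2, 121, 156, 192 and 197 CPM and FGF8 22.9, 42.9, 61.6, 83.0 and 81.1 CPM. ID1 was 154, 201, 260, 289 and 315 CPM over the same classes. The median depth of a cell also went up over these LEFTY classes, with 15561, 16687, 18142.5, 19929 and 24809.5 UMIs. Over the EOMES classes it was 16635, 16858, 17834 and 18735 UMIs. The part of depth in these series was not tested. LEFTY1 and LEFTY2 are near-identical genes, and the authors' counting may have split reads between them.

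Clustering of the members alone gave 5 groups, which are named only by number and leading genes. Cluster 2, with 314 cells (29.7%) and a median of 19694 UMIs, was led by the adhesion and neuronal genes CTNNA2 (80.2 CPM in the cluster, 21.4 CPM in other members), GRIK2 (60.4 and 16.2 CPM) and RBFOX1 (98.9 and 32.5 CPM). It had low FGF8, with 19.7 CPM against 56.0 CPM in other members, and low MIXL1, with 17.3 against 41.8 CPM. Its share of mitochondrial UMIs was the second lowest, at a median of 3.66%.

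Cluster 1, with 166 cells (15.7%) and the lowest median depth of the 5, 12693 UMIs, was led by LEFTY2 (102 CPM, 55.6 CPM in other members), CAV1 (90.0 and 50.2 CPM) and FGF8 (69.9 and 39.6 CPM). These leading genes, all above 50 CPM, were each less than 2-fold higher, and LEFTY2 is read by the rule. Of 9926 genes measured, 23 were at least 2-fold higher in cluster 1 than in other members and 390 at least 2-fold lower. Among the lower ones, ROBO2 stood at 36.3 CPM in the cluster and 167 CPM in other members. Cluster 5, with 186 cells (17.6%), was led by the actin-binding gene TAGLN (149 and 48.1 CPM) and by TENM4 (251 and 96.9 CPM), with MIXL1 at 55.8 CPM against 27.5 CPM in other members and NODAL at 181 against 108 CPM. Cluster 3, with 97 cells (9.16%), was led by the sterol enzyme MVD (74.0 and 37.5 CPM), the stress gene DDIT4 (318 and 163 CPM) and the glycolytic enzyme LDHA (1249 and 684 CPM). These were also less than 2-fold higher, and of 9951 genes measured 45 were at least 2-fold higher in cluster 3 and 506 lower. In clusters 2, 4 and 5 the higher and lower genes were 79 and 46, 34 and 39, and 38 and 76. The part of depth in these counts was not tested. Cluster 4, with 296 cells (28.0%), was led by CCDC144NL-AS1 (356 and 132 CPM) and the replication gene DTL (161 and 67.5 CPM), and was low in the mitotic genes UBE2C (85.4 and 326 CPM) and TOP2A (72.0 and 260 CPM). SOX2 differed little between them, from 176 CPM in cluster 2 to 210 CPM in cluster 4.

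Across members at 10000 UMIs each, the highest variance over mean among 5645 genes was that of the mitochondrial transcripts MT-CO3 (17.9) and MT-CO2 (12.4), then of the neuropeptide gene GAL (9.01), beside a median of 1.08. MT-ATP6, MT-ND3, MT-CYB and MT-CO1 also stood among the first 12, with the noncoding RNAs XACT, MALAT1 and ENSG00000226965 and the glypican GPC6. Cell cycle sums were alike in members and other cells. The S phase genes had a median of 18 UMIs per thinned cell in both, and the genes of G2 and mitosis 21 UMIs in members and 22 in the other cells. Over the 6 groups of members and single-clause neighbours, the genes whose log level was nearest to SOX2 were BPTF (Pearson r 0.97), PSME3 (0.95), NPEPPS, CDCA2, CENPF, TPX2, ARHGAP26 and SERINC5. Their levels ranged over at most 0.70 on the log2 scale, the groups share 1 library, and 1 group was set apart by its SOX2 count.

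Few genes set the members apart from the cells that met the rule under CHIR99021 alone. Of 9902 genes measured in members or in the 704 CHIR cells, 0 (0%) were at least 2-fold higher and 2 (0.0202%) at least 2-fold lower in members. These were TMEM132C, with 5.06 CPM in members and 12.8 CPM in the CHIR cells, and LINC01414, with 5.27 and 10.8 CPM. Between the other cells of the same libraries, 25 of 9819 genes (0.255%) were at least 2-fold higher and 4 (0.0407%) lower under CHIR+Activin. The median depth was 16684 UMIs in members and 20738 UMIs in the CHIR cells that met the rule.

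FOXD3-AS1, the antisense neighbour of an epiblast and neural crest factor, had the highest ratio among genes of at least 50 CPM, with 67.4 CPM in members and 34.2 CPM in the CHIR cells (log2 0.98, 0.83 to 1.12). NTS, which encodes neurotensin, had 52.4 CPM in members and 31.6 CPM in the CHIR cells (log2 0.73), and GAL had 1719 and 1241 CPM (log2 0.47). LRFN5, a synaptic adhesion gene, had 143 CPM in members and 87.2 CPM in the CHIR cells (log2 0.71). At the other end stood ESYT2, an endoplasmic reticulum tether, with 56.8 CPM in members and 90.0 CPM in the CHIR cells (log2 -0.66), and TAGLN with 68.3 and 106 CPM (log2 -0.64). NTS, LRFN5 and ESYT2 gave nearly the same ratios between the other cells of the libraries, with log2 values of 0.72, 0.76 and -0.71. TAGLN lay the other way there, at log2 0.66. The pluripotency list had 0 of 25 genes past 2-fold and a median log2 ratio of 0.06.

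Under BMP4 the cells that met the rule were fewer and stood farther from the members. The median depth was 16684 UMIs in members and 14129.5 UMIs in these BMP4 cells. Of 9931 genes measured, 40 (0.403%) were at least 2-fold higher and 27 (0.272%) at least 2-fold lower in members, while between the other cells of the libraries 190 (1.91%) and 296 (2.97%) of 9958 were. FGF8 stood at 43.2 CPM in members and 6.71 CPM in the BMP4 cells, a log2 ratio of 2.69 (2.19 to 3.23). SP5 stood at 78.7 CPM in members and 24.7 CPM in the BMP4 cells (log2 1.67), and NKX1-2, a homeobox gene of the caudal epiblast, at 30.7 and 9.87 CPM (log2 1.64).

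NODAL was the 1 of 10 measured NODAL ligand and receptor genes past 2-fold, with 122 CPM in members and 59.6 CPM in the BMP4 cells (log2 1.04). FGF8 and NODAL also differed between the other cells of the libraries, with log2 ratios of 2.87 and 1.10. LRFN5 had 143 CPM in members and 51.0 CPM in the BMP4 cells (log2 1.49), while its log2 ratio between the other cells was -0.02.

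Lower in members than in the BMP4 cells were NTS, with 52.4 CPM in members and 217 CPM in the BMP4 cells (log2 -2.05), the dystrophin gene DMD with 22.5 and 87.1 CPM (log2 -1.95) and the claudin gene CLDN10 with 30.6 and 112 CPM (log2 -1.88). The BMP target ID1 had 206 CPM in members and 399 CPM in the BMP4 cells (log2 -0.95). These 4 genes were more unequal between the other cells of the libraries, with log2 ratios of -4.16, -3.33, -3.78 and -2.20, and the part of free RNA in the BMP4 droplets was not tested. HAND1, a marker of extraembryonic and lateral mesoderm cells, had 0.105 CPM in members and 11.5 CPM in the BMP4 cells, where the other BMP4 cells had 133 CPM.

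Other genes were lower in members than in the BMP4 cells while the other cells of the libraries were closer. GRIK2 had 31.8 CPM in members and 81.4 CPM in the BMP4 cells (log2 -1.36), against a log2 ratio of 0.23 between the other cells. DUSP6, a feedback phosphatase of ERK signalling, had 21.3 CPM in members and 47.6 CPM in the BMP4 cells (log2 -1.16), against -0.04. HESX1, a homeobox repressor of the anterior neural plate and pituitary, had 8.07 CPM in members and 20.7 CPM in the BMP4 cells (log2 -1.36), against 0.32. The differences between these ratios were not tested. The pluripotency list had 0 of 25 genes past 2-fold and a median log2 ratio of -0.15, beside -0.02 over all genes, and all 10 mitochondrially encoded genes lay above an equal level, between 0.18 and 0.39.

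**Figure D4:**
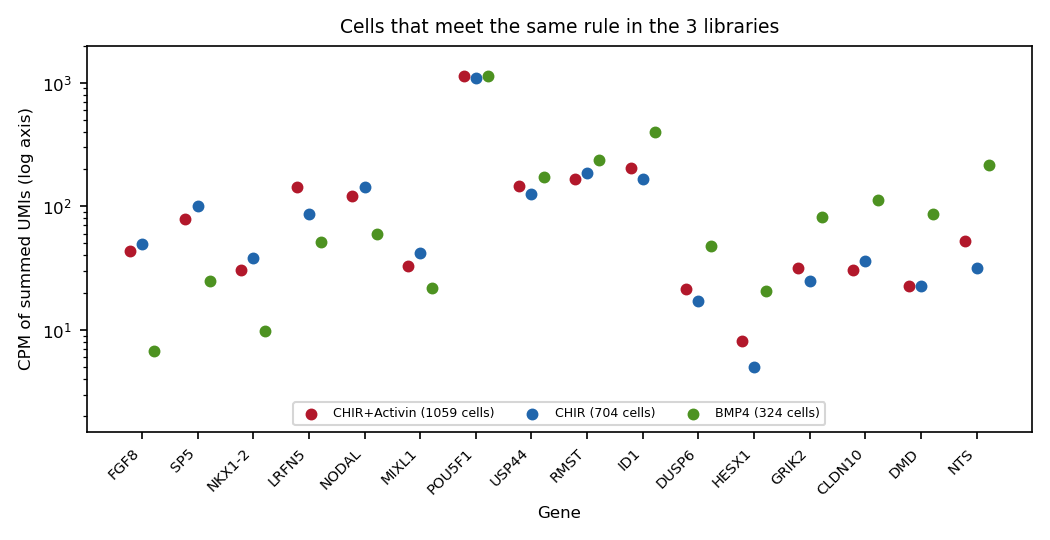
CPM on a log axis of 16 genes in the cells that met the rule in the CHIR+Activin, CHIR and BMP4 libraries, 1 point per library. FGF8 stands at 43.2, 49.7 and 6.71 CPM and NTS at 52.4, 31.6 and 217 CPM, while POU5F1 at 1141, 1085 and 1126 CPM is nearly level.

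Set against the other cells of its own library, the rule gave 17 genes at least 2-fold higher (0.171%) and 59 lower (0.592%) of 9965 in the CHIR library, and 467 (4.58%) and 433 (4.25%) of 10196 in the BMP4 library. Without the genes of the rule, 10 genes were on the higher side in both CHIR+Activin and CHIR, which is 27.0% of the 37 and 62.5% of the 16, and 52 on the lower side, 43.0% of the 121 and 92.9% of the 56. With BMP4 the shared genes were 30 on the higher side, 81.1% of the 37 and 6.45% of the 465, and 100 on the lower side, 82.6% of the 121 and 23.2% of the 431. Under BMP4, 32 of the 37 higher genes had a ratio of the same direction and 5 of the opposite one. The 5 were RBFOX1, with 94.6 CPM in the cells that met the rule and 134 CPM in the other BMP4 cells (log2 -0.50), ENSG00000284294 (log2 -0.66), SGK1 (-0.34), APELA (-0.26) and SYNPR (-0.09). Because the rule was the same in each library, shared genes follow in part from it.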

How the data were processed

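For each library the authors deposited raw counts of UMIs for every gene in every barcode. Per the file headers, Cell Ranger 8.0.1 wrote these matrices, and Seurat is named in the submitters' processing notes. The genome build, the annotation release and the strand setting were not given in the sources used here. All 38606 genes were kept under the files' names, and 21 symbols held by more than 1 identifier were replaced by the identifiers. The CHIR+Activin and CHIR matrices held 7391 and 7706 called cells. The BMP4 matrix held 1935344 barcodes, of which the 9440 with at least 3739 UMIs (10% of the 99th percentile of the top 10000) were taken as cells. Cells needed at least 2000 genes and at most 15% of UMIs from MT- genes, which removed 515 cells of CHIR+Activin, 622 of CHIR and 39 of BMP4.

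The members, the gene lists and the markers were chosen with earlier results of these data known. UMIs were summed over the cells of a group and divided by the group's total (CPM). Ratios carry exact conditional binomial intervals, levels exact Poisson intervals and shares exact Clopper-Pearson intervals, all at 95% and for counting error only. A gene was measured if it had at least 10 CPM in either group and counted if it was at least 2-fold apart. With 1 library per treatment no test was run, and the precision of a level is set by the UMIs behind it. A group at 0 UMIs was set at 3. Genes were named by rule: the 12 largest ratios each way over the other cells and the 8 each way over each other library, from 50 CPM and outside the rule, every marker, and up to 3 genes each way per list; a gene outside this rule is named only as a member of a list, as one of few genes counted, or as picked out after its values were seen. Some genes that the rule names are not reported here. The 35 lists hold 405 genes.

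For shares of cells with a UMI and for variance over mean (genes with a mean of at least 0.3), 10000 UMIs were drawn from each cell and shallower cells were left out, 333 in the CHIR+Activin library and 47 of them members. Members were clustered from 2000 variable genes, 20 principal components, 20 neighbours and Leiden resolution 0.6. Doublets were scored with Scrublet in scanpy 1.11.5 with 2 simulated doublets per cell and kept. Promoter letters came from RefSeq's table for GRCh38.p14, which is not shown to be the files' build. Python 3.11.15, numpy 2.4.6, scipy 1.17.1 and pandas 2.3.3 were used, with edgeR for trimmed mean scaling as an alternative. The comparison was tested on simulated data for members over the other cells (9660 genes), where 100% of genes simulated 4-fold apart and 100% of those 3-fold apart were found at least 2-fold apart, 0 unchanged genes were, and intervals held the simulated ratio for 95.2% of genes; counting noise was the only noise simulated. The changed genes were drawn from those of at least 20 CPM over both groups together, so recovery of lower genes and of changes near 2-fold was not simulated. Alternatives were other depths, floors, scalings, thresholds of the rule and cell filters, and doublets left out.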

Additional observations from a re-analysis of the deposited data

Results flagged for a closer look

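Between CHIR+Activin and BMP4, 2 of 9544 genes measured both among the cells that met the rule and among the other cells were at least 2-fold apart in opposite directions, and 0 of 9609 were between CHIR+Activin and CHIR. SFRP1, a secreted WNT modulator, had 10.4 CPM in members and 25.1 CPM in the BMP4 cells that met the rule (log2 -1.27), while the other cells had 12.8 CPM under CHIR+Activin and 5.42 CPM under BMP4 (log2 1.24), a difference of -2.51 between the ratios. AMOTL2, a junctional regulator of YAP, had 19.5 CPM in members and 9.08 CPM in the BMP4 cells that met the rule (log2 1.10), while the other cells had 21.0 CPM under CHIR+Activin and 45.3 CPM under BMP4 (log2 -1.11), a difference of 2.21. With 1 library per treatment neither difference was tested.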

How the results depend on the processing

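No paired analysis was possible because each treatment has 1 library. For the same reason no replicate could be left out. The share of kept cells that met the rule was 14.2% when the rule was read on cells drawn down to 10000 UMIs, 23.0% with SOX2 at 1 UMI or more, 9.28% at 3 or more and 11.6% with LEFTY1 and LEFTY2 under 5; it was 16.0% without high doublet scores. Over the other cells, the 38 genes higher in members became 14 with the rule on thinned cells, 69 at a floor of 5 CPM and 10 at a floor of 50 CPM, and the 125 lower became 81 with the rule on thinned cells and 33 at 50 CPM. Over the CHIR cells, the 0 higher became 4 with thinned cells, 4 with the rule on thinned cells, 4 at 5 CPM and 2 with trimmed mean scaling, and the 2 lower became 4, 4, 14 and 1, with 0 at 50 CPM. Over the BMP4 cells, the 40 higher became 63 with the rule on thinned cells, 65 at 5 CPM and 11 at 50 CPM, and the 27 lower became 48 with thinned cells, 47 with the rule on thinned cells, 71 at 5 CPM and 6 at 50 CPM. A floor changes a count by admitting or leaving out genes; for the other settings the cause was not tested. The 27 other values of shares and counts moved by less than 1.5 times or within their interval. Of 168 ratios of named genes, 13 moved beyond their interval, by at most 0.378 on the log2 scale, and 0 changed sign. Of 261 list medians, 2 moved, by at most 0.278. Trimmed mean scaling shifted all ratios by -0.03, 0.08 and 0.07 on the log2 scale over the other cells, the CHIR cells and the BMP4 cells. The BMP4 comparison rests on 1059 members and 324 BMP4 cells.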

Other observations

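Some metabolic gene lists lay slightly to one side in the members. All 16 measured glycolysis genes lay at or above an equal level in members over the other cells, with a median log2 ratio of 0.21 and none past 2-fold, among them the hexokinase HK1 with 82.0 CPM in members and 62.3 CPM in the other cells and the glucose transporter SLC2A1 with 183 and 143 CPM. In the cells that met the rule over the others, 12 of 17 lay above in the CHIR library (median 0.07) and 15 of 17 in the BMP4 library (median 0.39). Of 15 cholesterol synthesis genes, 14 lay above in the CHIR+Activin library (median log2 0.11), 2 in the CHIR library (median -0.10) and 14 in the BMP4 library (median 0.45). Of 12 measured genes of the integrated stress response, 10 lay above in the CHIR+Activin library (median log2 0.23) and 4 in the CHIR library (median -0.06), and in the BMP4 library 9 of 11 did (median 0.44). Over all measured genes the median log2 ratio was 0.001 in the CHIR+Activin library, 0.007 in the CHIR library and -0.002 in the BMP4 library. The differences between libraries were not tested.

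Below the floor of 10 CPM, a pair of pluripotency genes stood apart, both picked out after their values were seen. UTF1, a chromatin-bound factor of pluripotent cells, had 9.65 CPM in members and 2.31 CPM in the other cells, a log2 ratio of 2.06. DPPA3, a maternal factor known from germ cells and the naive state, had 2.69 CPM in members and 0.752 CPM in the other cells (log2 1.84). In the CHIR cells that met the rule UTF1 stood at 5.95 CPM and DPPA3 at 0.506 CPM, and in the BMP4 cells at 5.33 and 1.97 CPM.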
